A study of Mus musculus with 4 samples.

Results

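The genes described are 55 histone methylation enzymes and subunits of their complexes. They are lysine methyltransferases, arginine methyltransferases, subunits that all or some H3K4 methyltransferases share, and lysine demethylases. The PRC2 complex, the H3K36 enzymes Setd2, Nsd1 and Ash1l, and the demethylase Kdm1b were not part of the list. Members were found by gene symbol among probe sets (groups of short array probes that read 1 transcript) annotated with a single symbol. Of the 55, 54 were measured, among 18193 genes in all. Setd8, Suv420h1 and Suv420h2 were found under their current symbols Kmt5a, Kmt5b and Kmt5c, and Suv39h1 was not analysed here.

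The 4 Affymetrix arrays measured RNA of E14, an embryonic stem cell line of the mouse, kept in medium with serum and LIF. The 2 groups were Npac RNAi cells (2 arrays), which received a short hairpin RNA against Npac, and control RNAi cells (2 arrays), whose hairpin is not described in the labels. The treatment text deposited with every array, controls included, names only the Npac hairpin, so the control group rests on the titles and genotype labels. Both groups were kept under puromycin for 3 days before harvest. Npac is an older name of Glyr1, a nucleosome-binding protein with a domain that recognises methylated H3K36. All cells were of 1 line, and nothing in the labels says that replicates came from separate cultures, so p-values measure the spread between these arrays, which may be technical. Values are log2 RMA signals, and each difference is Npac RNAi minus control RNAi. A difference of 1 is a 2-fold change.

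Histone lysine methylation is written by SET domain enzymes, and by the unrelated Dot1l, and is erased by the amine oxidase Kdm1a and by the JmjC dioxygenases. Methylation of H3K4 marks promoters and enhancers, that of H3K9 and H4K20 marks silent chromatin, and that of H3K79 and H3K36 marks transcribed gene bodies. In embryonic stem cells several of these enzymes are known to sustain self-renewal or to silence retroelements and lineage genes. The comparison asked whether transcripts of these enzymes differed when Npac was depleted.

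Glyr1 itself read 10.23 and 10.20 in Npac RNAi cells, against 11.30 and 11.32 on the control arrays, which left 46.9% of the control level (limma adjusted p = 0.00101). Of 12 embryonic stem cell markers 9 were lower and 0 higher in Npac RNAi cells, with Pou5f1, the Oct4 gene, at 11.90 and 11.88, against 13.03 and 13.08 in control RNAi cells. Of 12 trophectoderm markers 11 were higher and 0 lower. Of 11 genes of DNA replication and mitosis 10 were lower and 0 higher. The summed linear signal of the stem cell markers was 65776 to 66404 on Npac RNAi arrays and 84178 to 84505 on control arrays. That of the trophectoderm markers was 43769 to 44353 on Npac RNAi arrays and 10656 to 10772 on control arrays, and that of the replication and mitosis genes 47295 to 47673 and 61418 to 62997. Of 10 fibroblast feeder markers 1 was higher (Pdgfrb) and 1 lower (Col3a1), their summed signal was 785 to 800.3 in Npac RNAi and 618 to 658 in control RNAi, and 6 of them, among them Col3a1, Dcn and Lum, lay below the 25th percentile of all genes. The part of these cell state markers in the differences below was not tested, and in bulk RNA fewer cells of a type cannot be told apart from less RNA per cell. The 24 poly-A spike-in probe sets, which read bacterial transcripts added before labelling, were 0.54 higher on the Npac RNAi arrays. Scaling on them would lower every difference below by that amount. The 3′ minus 5′ difference of Actb, a measure of RNA integrity, was 0.69 and 0.68 on Npac RNAi arrays and 0.64 and 0.68 on control arrays. That of Gapdh was 0.0557 and 0.0156 on Npac RNAi arrays and -0.0269 and -0.0686 on control arrays, so its groups did not overlap. The 3 probe sets for 18S ribosomal RNA were lower in Npac RNAi, by log2 differences of -0.31, -0.43 and -0.55. The part of RNA quality in the results was not tested.

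Of the 54 enzymes and subunits, 17 were higher and 11 lower in Npac RNAi cells, and 26 did not pass the test (limma, Benjamini-Hochberg adjusted p under 0.05 over all genes). Of all genes 22.1% were called higher and 18.7% lower. The members are mostly well expressed, and among genes above the median level 33.6% were higher and 19.3% lower. Of the 51 members above that level 15 were higher (29.4%) and 11 lower (21.6%), shares near those of genes of like level. The median log2 difference was 0.09 over the 54 members and -0.04 over all genes. Above the median level it was 0.02 over the 51 members and 0.06 over all genes. Single enzymes lay far from the members' median in both directions, between -0.94 and 1.36. Of the called members 7 were higher by 1.5-fold or more (8.09% of all genes) and 3 lower by as much (2.04%). The 2 groups did not overlap for 47 members (87.0%), and for 74.2% of all genes. Above the median level the shares were 86.3% of members and 85.7% of genes.

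**Figure D1:**
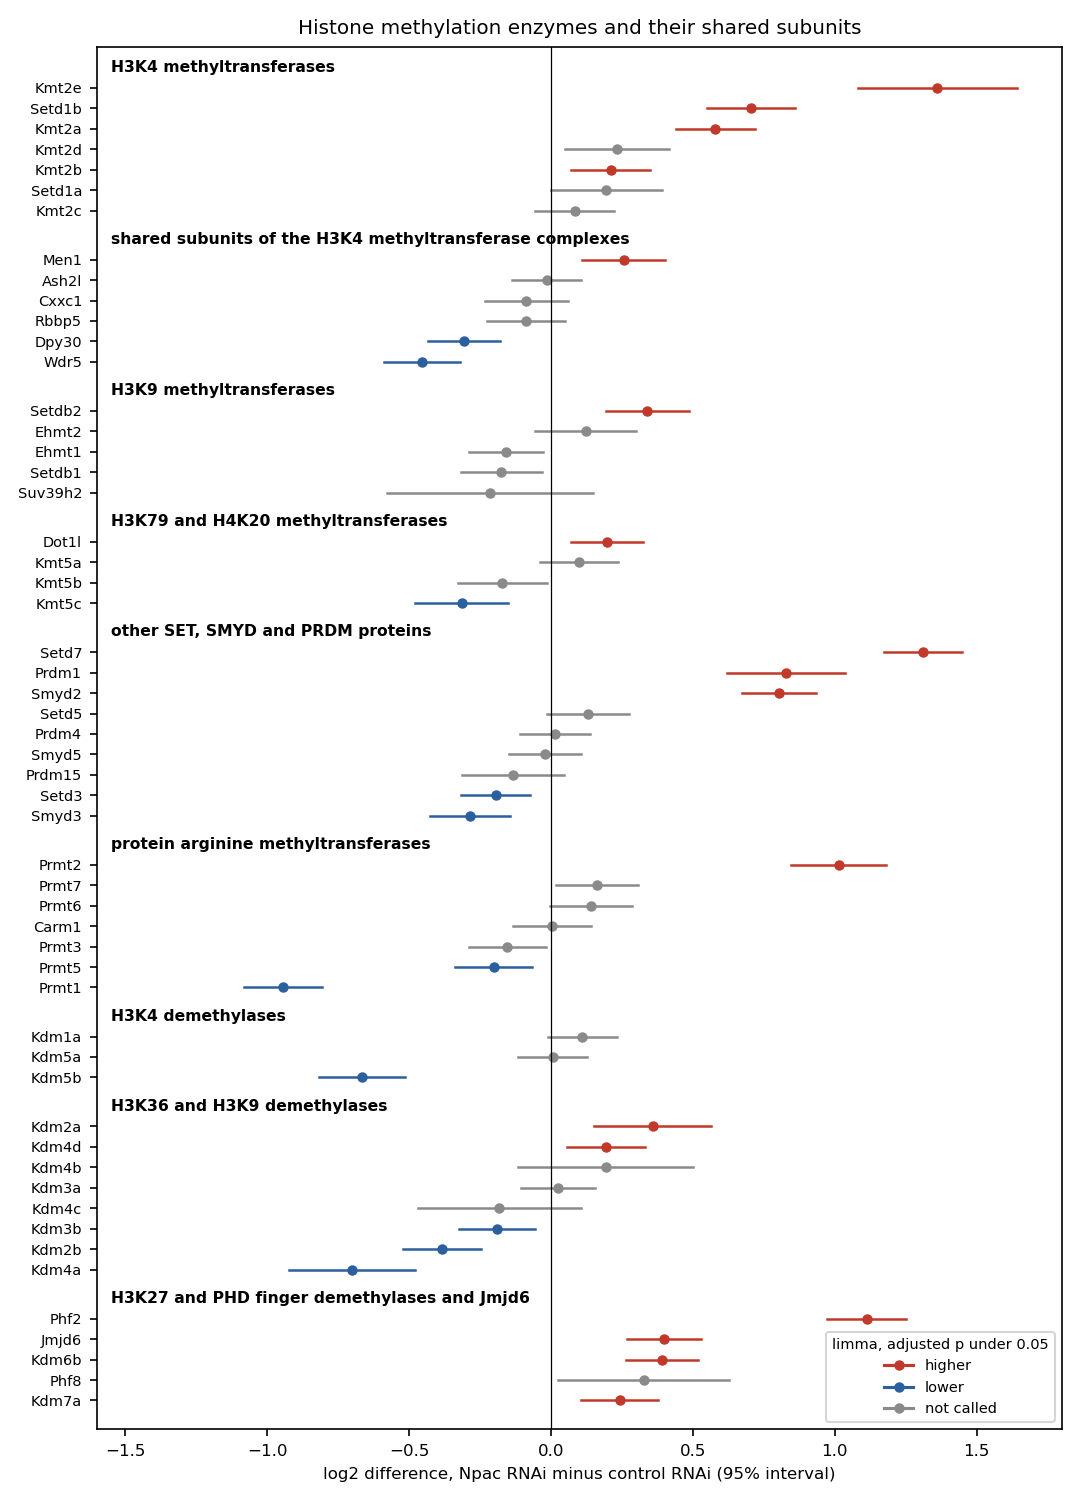
Log2 difference of each measured member (x axis, Npac RNAi minus control RNAi), grouped by role, with limma's 95% interval as a bar and the call by colour. Kmt2e (1.36) and Setd7 (1.31) lie farthest to the right and Prmt1 (-0.94) farthest to the left, while most members lie near 0.

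The most raised members were Kmt2e, Setd7, Phf2 and Prmt2, and the most lowered were Prmt1, Kdm4a and Kdm5b. Promoter sequences from RefSeq (GRCm38.p6) were matched for 42 members with 60 start sites. Of called members with 1 start site in that table, the 3 with the largest rise and the 3 with the largest fall are printed, to show what sequence precedes genes that moved apart. Each is the 250 bases before the start, 5′ to 3′ on the gene's strand. Capitals mark matches, on either strand, to CCAAT (the CCAAT box), CACGTG (the E-box), GGGCGGG (the GC box), CCGGAAG (an ETS motif), TGANTCA (an AP-1 motif), TTTGGCGC or TTTCCCGC (E2F motifs) and the NRF1 motif. None of the marked matches overlap.
Setd7 promoter, chr3:51560824-51561073, minus strand: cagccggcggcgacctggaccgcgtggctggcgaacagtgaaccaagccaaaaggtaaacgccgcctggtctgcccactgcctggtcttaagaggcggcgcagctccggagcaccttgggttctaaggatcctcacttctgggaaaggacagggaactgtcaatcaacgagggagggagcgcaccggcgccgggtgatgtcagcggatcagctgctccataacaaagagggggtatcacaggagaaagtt
Phf2 promoter, chr13:48870886-48871135, minus strand: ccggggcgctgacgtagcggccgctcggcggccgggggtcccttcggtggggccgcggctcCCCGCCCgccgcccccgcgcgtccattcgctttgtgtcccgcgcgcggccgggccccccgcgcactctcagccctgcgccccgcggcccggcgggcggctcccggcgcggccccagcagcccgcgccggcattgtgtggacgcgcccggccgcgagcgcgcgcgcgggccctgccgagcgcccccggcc
Prmt2 promoter, chr10:76237866-76238115, minus strand: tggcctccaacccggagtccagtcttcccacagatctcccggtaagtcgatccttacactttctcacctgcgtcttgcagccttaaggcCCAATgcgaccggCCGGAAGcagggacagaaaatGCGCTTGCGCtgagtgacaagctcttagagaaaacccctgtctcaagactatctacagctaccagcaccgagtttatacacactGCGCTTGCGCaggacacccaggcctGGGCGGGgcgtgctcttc
Prmt1 promoter, chr7:44986421-44986670, minus strand: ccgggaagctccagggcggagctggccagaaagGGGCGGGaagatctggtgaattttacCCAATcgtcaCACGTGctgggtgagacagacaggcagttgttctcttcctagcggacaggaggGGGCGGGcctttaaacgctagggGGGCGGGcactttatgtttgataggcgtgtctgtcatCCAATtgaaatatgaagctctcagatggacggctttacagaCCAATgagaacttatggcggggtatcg
Kdm4a promoter, chr4:118180044-118180293, minus strand: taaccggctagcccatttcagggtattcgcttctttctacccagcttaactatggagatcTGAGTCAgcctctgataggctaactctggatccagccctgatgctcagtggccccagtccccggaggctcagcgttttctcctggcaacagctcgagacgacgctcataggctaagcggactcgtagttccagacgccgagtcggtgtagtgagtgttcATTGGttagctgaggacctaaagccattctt
Kdm5b promoter, chr1:134559928-134560177, plus strand: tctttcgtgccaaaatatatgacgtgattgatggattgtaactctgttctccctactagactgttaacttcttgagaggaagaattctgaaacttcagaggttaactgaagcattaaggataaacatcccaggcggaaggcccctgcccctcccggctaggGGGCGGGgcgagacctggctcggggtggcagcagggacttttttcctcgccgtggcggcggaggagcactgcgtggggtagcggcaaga

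The raised Setd7 promoter held none of these motifs in this window. Phf2 held 1 GC box in a window of 85.6% GC with 50 CpG sites. Prmt2 held 1 CCAAT box, 1 GC box, 1 ETS motif and 2 NRF1 motifs. Among the lowered genes, Prmt1 held 3 CCAAT boxes, 1 E-box and 3 GC boxes, Kdm4a 1 CCAAT box and 1 AP-1 motif, and Kdm5b 1 GC box. A GC box was found in 33 of 60 member promoters (55%) and in 23.4% of all 32851 promoters in the table, and a CCAAT box in 45% of member promoters and 33.8% of all. An NRF1 motif was found in 7 of the 60 (11.7%) and in 3.74% of all, and an ETS motif in 8 (13.3%) and 6.91%. An E-box was found in 5 (8.33%) and 6.02%, and an AP-1 motif in 3 (5%) and 6.75%. The E2F motifs were in 0 and 2 of the 60, and in 0.417% and 0.895% of all. Member promoters also had a higher GC content (median 62.2%, against 52.4% for all) and more CpG sites (median 19.5, against 6). The 60 windows come from 42 members and some overlap, such as windows of Dpy30, Men1 and Setd3, so 1 site can be counted more than once. The matches describe the windows and were not tied to a direction of change.

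Of 7 genes listed as H3K4 methyltransferases 4 were called higher and 0 lower by their brightest probe sets, which all lay above 0 (median 0.23). Kmt2e is counted among the 7, although no such activity is known for it. Of all genes 22.1% were called higher, and of genes above the median level 33.6%. Another probe set lay below 0 for 3 of the 7, Kmt2c (down to -1.03, called lower), Setd1a (-0.33, called lower) and Kmt2d (-0.26, not called). With the mean of probe sets Kmt2c was called lower (-0.27). Kmt2e, which carries a SET domain without known methyltransferase activity and binds H3K4me3, rose most of the 54. Its signal was 9.87 and 9.96 in Npac RNAi, against 8.68 and 8.43 in control RNAi. The log2 difference was 1.36, or 2.57-fold (SE 0.103, adjusted p = 0.00269, n = 2 arrays per group). All 4 of its probe sets above the 25th percentile of level rose (0.79 to 1.36), so the rise did not rest on 1 probe set. Without limma's moderation its adjusted p was 0.057. Setd1b, a catalytic subunit of the complexes that place most promoter H3K4me3, was at 8.69 and 8.70 in Npac RNAi, against 8.05 and 7.94 in control RNAi (0.70, SE 0.0578, adjusted p = 0.00316). Kmt2a, the MLL1 enzyme that maintains Hox gene expression, was at 9.86 and 9.81, against 9.23 and 9.28 in control RNAi (0.58, SE 0.0511, adjusted p = 0.00358). The groups lay well apart for both, but with spike-in scaling the calls on Setd1b (0.16) and Kmt2a (0.04) were lost. Kmt2b, which acts at bivalent promoters in embryonic stem cells, was at 9.93 and 9.87, against 9.71 and 9.67 in control RNAi, and rose slightly (0.21, SE 0.0514, adjusted p = 0.0361). The enhancer enzymes Kmt2d (0.23, adjusted p = 0.0554) and Kmt2c (0.08, adjusted p = 0.254) and the Setd1b paralog Setd1a (0.20, adjusted p = 0.0974) did not pass the test.

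Of 6 subunits that all or only some of these enzymes share, 5 were below 0, 2 were called lower and 1 higher (median -0.09). Wdr5, the scaffold that binds the enzymes and has been linked to self-renewal, was at 11.10 and 11.11 in Npac RNAi, against 11.58 and 11.53 in control RNAi (-0.45, SE 0.0492, adjusted p = 0.00535). Both of its probe sets fell (-0.45 and -0.27). Dpy30, which dimerises and stimulates the complexes, was at 12.18 and 12.17, against 12.46 and 12.50 in control RNAi (-0.31, SE 0.047, adjusted p = 0.0117). With 1 array left out this call was kept in 1 of 4 cases. Men1, the menin gene, whose product belongs to the Kmt2a and Kmt2b complexes, was higher (0.26, adjusted p = 0.0249). Its probe sets disagreed, with 1 called higher (0.26), 1 called lower (-0.26) and 1 not called (0.23), so its direction is uncertain. Ash2l (-0.02, 95% interval -0.14 to 0.11), Rbbp5 (-0.09, interval -0.23 to 0.05) and Cxxc1, the CpG-binding subunit of the Setd1 complexes (-0.09, interval -0.23 to 0.06), did not pass the test. Whether enzymes and subunits differ as classes was not tested.

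**Figure D2:**
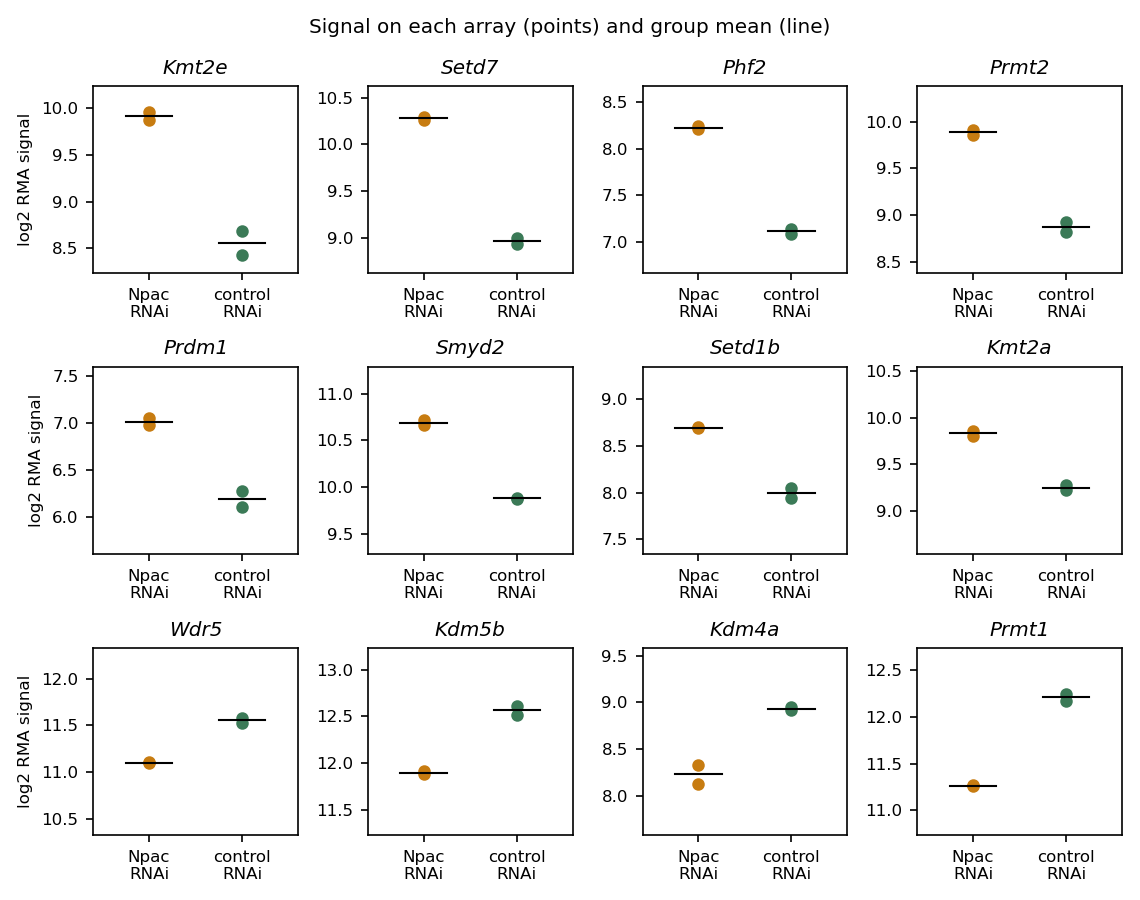
Log2 RMA signal on each array for the 12 called members whose groups did not overlap and whose difference was at least 0.4 in size. Npac RNAi is on the left of each panel and control RNAi on the right, with group means as lines and 2 log2 units per panel. The groups are separate in every panel by this choice, with the 2 Npac RNAi points above both control points for 8 genes and below them for 4.

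Of 5 measured H3K9 methyltransferases 1 was higher and 0 lower (median -0.16). The riser was Setdb2, a relative of Setdb1, at 8.78 and 8.81 in Npac RNAi, against 8.50 and 8.41 in control RNAi (0.34, SE 0.054, adjusted p = 0.0129). Setdb1, which silences retroelements in embryonic stem cells, stood at 10.43 and 10.51 in Npac RNAi, against 10.66 and 10.63 in control RNAi (-0.17, adjusted p = 0.0608). Ehmt1, the GLP gene, was at -0.16 (adjusted p = 0.0615) and its partner Ehmt2, the G9a gene, at 0.12 (adjusted p = 0.201). Suv39h2, a heterochromatin enzyme, was at -0.22 with a wide 95% interval of -0.58 to 0.15, and its groups overlapped. Setdb1 and Ehmt1 were called lower with a trend, after quantile normalization, centring or spike-in scaling, and with filters on dim genes.

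Among the H4K20 enzymes, Kmt5c, which adds the second and further methyl groups at heterochromatin, was at 9.45 and 9.35 in Npac RNAi, against 9.74 and 9.68 in control RNAi (-0.31, SE 0.0605, adjusted p = 0.0202). Kmt5b, its paralog, had no call (-0.17, adjusted p = 0.0778), and its 5 probe sets ran from -0.19 to 0.64, with the highest called higher. Kmt5a, which places the first methyl group and is tied to the cell cycle, was at 0.10 (adjusted p = 0.19). Dot1l, the H3K79 methyltransferase, was at 9.52 and 9.48, against 9.31 and 9.29 in control RNAi, and rose slightly (0.20, SE 0.0474, adjusted p = 0.0347), and its other probe set gave 0.42. The calls on Dot1l and on Kmt2b were lost when any 1 of the 4 arrays was left out.

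Of 9 other SET, SMYD and PRDM proteins 3 were higher, 2 lower and 4 not called (median 0.01). Setd7, which monomethylates H3K4 in vitro and methylates transcription factors, stood at 10.26 and 10.30 in Npac RNAi, against 8.999 and 8.94 in control RNAi. It rose 2.48-fold (1.31, SE 0.0506, adjusted p = 0.000899), the lowest adjusted p of the 54, and was 0.77 with spike-in scaling. Smyd2, which methylates p53 and other proteins, was at 10.66 and 10.71, against 9.88 and 9.89 in control RNAi (0.80, SE 0.0484, adjusted p = 0.00176). Prdm1, the Blimp1 gene, a repressor needed for primordial germ cells, was at 6.98 and 7.05, against 6.27 and 6.10 in control RNAi (0.83, SE 0.0767, adjusted p = 0.00397). All 3 stayed called and above 0 with spike-in scaling, while without moderation the adjusted p of Prdm1 was 0.0611. Setd3, an actin histidine methyltransferase, was called lower (-0.19, adjusted p = 0.0317), but its other probe set gave 0.42 without a call. Smyd3 was also lower (-0.29, adjusted p = 0.0179). No call was made for Setd5 (0.13), Prdm4 (0.01), Smyd5 (-0.02) or Prdm15 (-0.13).

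Among arginine methyltransferases, Prmt1 and Prmt2 moved apart. Of 7 enzymes, 1 was higher and 2 lower (median 0.00438). Prmt1, the main source of asymmetric dimethylarginine, was at 11.27 and 11.26 in Npac RNAi, against 12.17 and 12.24 in control RNAi. Its log2 difference of -0.94 (SE 0.0512, adjusted p = 0.00151) left 52% of the control level, and 0.401% of all genes lay at or below it. Prmt2, a weakly active relative and nuclear receptor coactivator, was at 9.86 and 9.91, against 8.93 and 8.82 in control RNAi (1.01, SE 0.062, adjusted p = 0.00179). Its other probe set gave 0.62. The pair thus moved in opposite directions, by 1.92-fold and 2.02-fold, and neither call was lost in any single-array omission. Prmt5, the main symmetric dimethylating enzyme, was slightly lower (-0.20, adjusted p = 0.0385), a call lost without any 1 array. Prmt3 (-0.15), Prmt6 (0.14), Prmt7 (0.16) and the coactivator Carm1 (0.00438, 95% interval -0.13 to 0.14) did not pass the test.

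Among H3K4 demethylases Kdm5b alone was called. Kdm5b, a JmjC enzyme linked to stem cell self-renewal, was at 11.91 and 11.88 in Npac RNAi, against 12.52 and 12.61 in control RNAi (-0.67, SE 0.0555, adjusted p = 0.00325). All 4 of its probe sets were below 0 (-0.67 to -0.36), and 3 of them were called. Its paralog Kdm5a had no call (0.01, 95% interval -0.12 to 0.13), and Kdm1a, the LSD1 enzyme that decommissions enhancers during differentiation, was at 0.11 (interval -0.01 to 0.23). The difference between Kdm5b and Kdm5a was not tested itself.

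The H3K36 and H3K9 demethylases were split, with 2 of 8 higher and 3 lower (median -0.08). Kdm4a, which acts on H3K9 and H3K36, stood at 8.33 and 8.13, against 8.91 and 8.95 in control RNAi (-0.70, SE 0.0825, adjusted p = 0.00652). Its adjusted p was 0.0523 without control array 2 and 0.0782 without moderation. Kdm2b, which brings a variant of PRC1 to CpG islands, was at 11.47 and 11.53, against 11.87 and 11.90 in control RNAi (-0.39, SE 0.0508, adjusted p = 0.00824), but its other probe set gave -0.03. Its paralog Kdm2a was higher (0.36, SE 0.0765, adjusted p = 0.0262). This call was kept in 1 of 4 single-array omissions and lost with centring, and the mean of probe sets gave -0.0371. Kdm3b was slightly lower (-0.19, adjusted p = 0.0422), and the dim Kdm4d, at the 14.3 percentile of level, slightly higher (0.19, adjusted p = 0.0431). Kdm3a and Kdm4c, both known in mouse embryonic stem cells as targets of Oct4, had no call (0.02 and -0.18, adjusted p = 0.709 and 0.235), with 95% intervals of -0.11 to 0.15 and -0.47 to 0.11. Kdm4b had no call either (0.19, adjusted p = 0.236).

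By their brightest probe sets, the H3K27 demethylase Kdm6b, the PHD finger demethylases and Jmjd6 all lay above 0 (median 0.39). Of these 5 genes 4 were called higher and 0 lower, where 22.1% of all genes were higher and 18.7% lower. Of genes above the median level 33.6% were higher. Other probe sets above the 25th percentile of level lay below 0 for Kdm6b (-0.01 and -0.16), Phf2 and Phf8 (-0.17), without a call. Phf2, which reads H3K4me3 and acts on H3K9 methylation, was at 8.24 and 8.20, against 7.14 and 7.08 in control RNAi (1.11, SE 0.0515, adjusted p = 0.00119). That value came from its brightest probe set. The other 2 probe sets above the 25th percentile gave -0.17 and -0.03 without a call, and the mean over probe sets was 0.21 and not called. Kdm6b, the JMJD3 enzyme induced in differentiation and inflammation, was at 10.15 and 10.11, against 9.75 and 9.73 in control RNAi (0.39, SE 0.0468, adjusted p = 0.00681). Jmjd6, a lysyl hydroxylase of splicing factors, was at 10.42 and 10.39, against 9.99 and 10.03 in control RNAi (0.40, SE 0.0482, adjusted p = 0.00687). The groups lay apart for both, yet the call on Kdm6b was lost with the mean over probe sets. Of the 3 probe sets of Jmjd6 1 gave 0.02 without a call, and the call on Jmjd6 was lost where that one was used. Kdm7a was also higher (0.24, adjusted p = 0.0242), a call lost with quantile normalization, centring and the mean over probe sets. Kdm6b, Jmjd6 and Kdm7a were below 0 with spike-in scaling. Phf8, the X-linked relative, did not pass the test (0.33, 95% interval 0.03 to 0.63, adjusted p = 0.0796).

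How far a value rests on 1 probe set could be read for 34 members with several probe sets above the 25th percentile of level. In 18 of them all such probe sets had 1 sign, and in 16 the signs were mixed. Among all 110 such probe sets of the members 27 were called higher and 18 lower (24.5% and 16.4%) in a limma fit over 34945 probe sets. Of the 24483 probe sets above the same level in that fit 23.4% were higher and 17.9% lower, and of all its probe sets 17.4% and 16%. Readings differed widely within Phf2, as given above, and within Kmt2c. For Kmt2c 3 probe sets lay between -0.10 and 0.08, and the remaining probe set read 7.72 and 7.62 in Npac RNAi, against 8.72 and 8.68 in control RNAi (-1.03, adjusted p = 0.00197 in the probe set fit). The deposited files do not say which part of a transcript a probe set reads.

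Further members with mixed signs were Setd1a (0.20 and -0.33), Kmt2d (0.23 and -0.26), Ehmt2 (0.12 and -0.20), Kdm3b (-0.19 and 0.08), Prmt7 (0.16 and -0.45) and Phf8 (0.33 and -0.17). For Setd1a and Prmt7 the lower reading was called in the probe set fit. Setd5 gave 0.13, -0.09 and -0.37, the last called lower, Kdm6b gave 0.39, -0.01 and -0.16, and Suv39h2 gave -0.22, -0.16 and 0.02. Kdm5a gave 0.01, 0.23, -0.07 and -0.23, and Prmt3 gave -0.15, 0.01, -0.25 and -0.14. Kmt5b gave -0.17, 0.64, 0.24, -0.09 and -0.19. The probe sets of Kmt2a, Kmt2e, Setd1b, Prmt2, Wdr5, Kdm5b and Kdm7a each kept 1 sign.

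**Figure D3:**
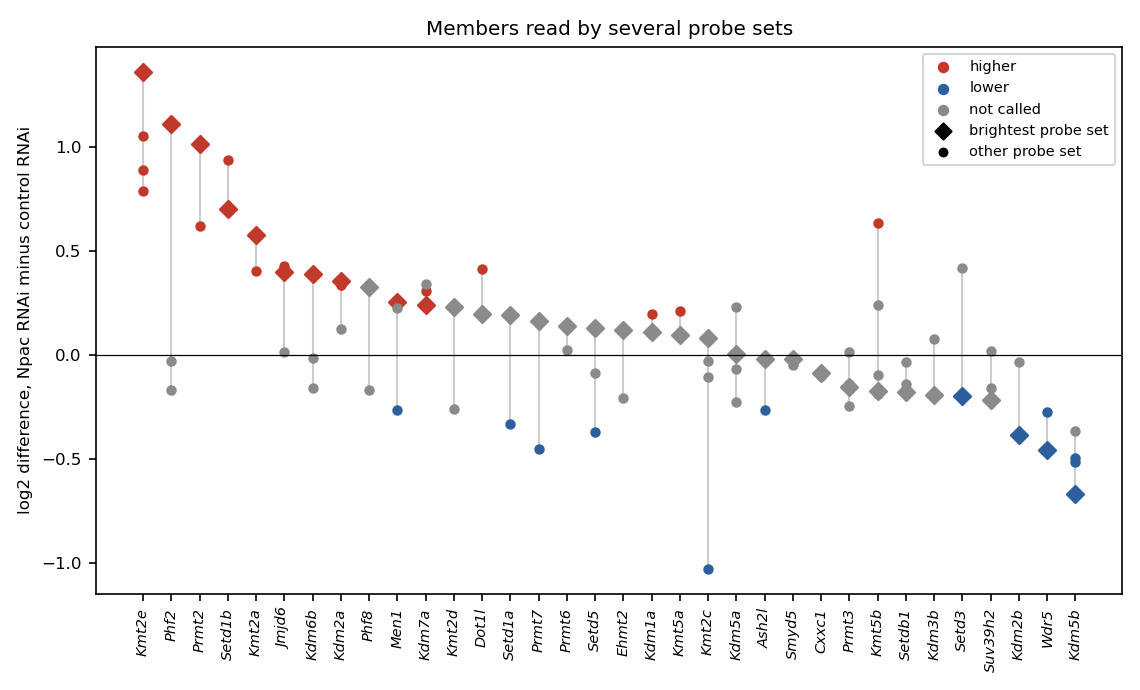
Log2 difference of each probe set (y axis) for the 34 members with several probe sets above the 25th percentile of level, coloured by the call of the fit over probe sets. Kmt2e and Kdm5b have all points on 1 side of 0, while Kmt2c has 1 probe set at -1.03 and the others near 0.

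The scaling set the balance of higher and lower members. Centring each array on the median of all genes shifted each difference by -0.14 and gave 11 members higher and 20 lower, where 15.6% of all genes were higher and 39.4% lower. The median difference over all genes was already -0.04 as deposited, so centring moved it further from 0. Scaling on the spike-ins gave 6 higher and 41 lower, where 4.98% of all genes were higher and 81.9% lower. The 6 that remained higher were Kmt2e (0.82), Setd7 (0.77), Phf2 (0.57), Prmt2 (0.47), Prdm1 (0.29) and Smyd2 (0.26). Both scalings shift every difference down, so the 11 members called lower as deposited could only move further below 0.

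**Figure D4:**
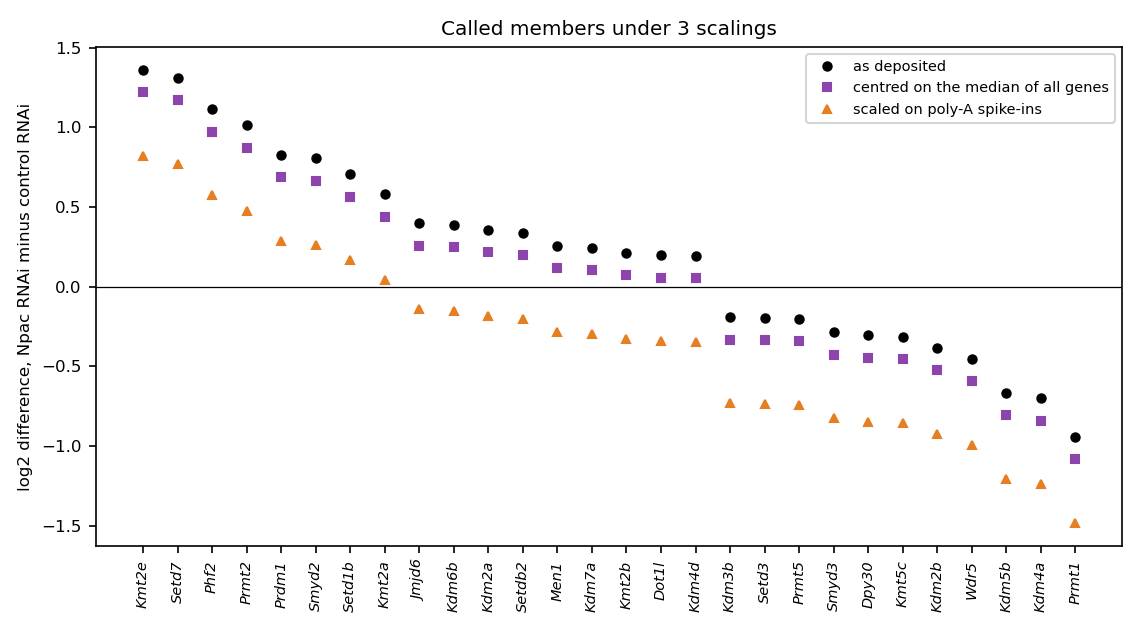
Log2 difference of the 28 called members (y axis) as deposited, centred on the median of all genes and scaled on the poly-A spike-ins. The 6 members that stay called higher with spike-in scaling lie at the left, and 9 risers drop below 0.

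Partner proteins and other enzymes of the same pathways, 69 measured of 72 listed, gave 19 higher and 22 lower (median -0.05). Of all genes 22.1% were higher and 18.7% lower, and of genes above the median level 33.6% were higher and 19.3% lower. Of 10 partners of Kdm1a in the CoREST complex 5 were higher and 4 lower. Rcor2, the CoREST form of embryonic stem cells, fell to 8.49 and 8.45 in Npac RNAi, against 9.33 and 9.39 in control RNAi (-0.89, SE 0.0501, adjusted p = 0.00161), while the CoREST-associated Gse1 (0.79) and the reader Phf21a (0.47) rose and Zmym3 fell (-0.44). The Rcor2 relatives Rcor1 (0.36) and Rcor3 (0.43) rose, and the deacetylases Hdac1 (-0.30) and Hdac2 (-0.23) fell. Kdm1a had no call, and its other probe set gave 0.20 with a call. Of its 10 listed partners 9 were called, where 40.8% of all genes were called. Whether this share differs from that of all genes was not tested.

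Of 9 further subunits of H3K4 methyltransferase complexes and related factors 2 were higher, Kansl1 (0.64) and the coactivator Ncoa6 (0.50), and 2 lower, Paxip1 (-0.39) and Wdr82 (-0.25), the last a subunit of the Setd1 complexes. Of 10 H3K9 partners and readers 3 were higher and 4 lower, with the heterochromatin protein Cbx1 (-0.64) and Uhrf1, which couples H3K9 methylation to maintenance of DNA methylation (-0.57), lower, and Cbx5 (0.41) and the G9a partner Wiz (0.27) higher. Trim28, which brings Setdb1 to retroelements, was also lower (-0.47, adjusted p = 0.00474). Of 6 partners of Dot1l 3 were higher, Mllt1 (0.47), Aff1 (0.42) and Aff4 (0.35), and 0 lower, and of 4 partners of Prmt5 0 were higher and 2 lower, its main cofactor Wdr77 (-0.31) and Coprs (-0.23).

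Of 9 enzymes of methyl donor and 2-oxoglutarate metabolism 2 were higher, Ogdh (0.49) and the methyl consumer Nnmt (0.42), and 4 lower. Ahcy, which clears the inhibitory product of methylation (-0.42), and Gnmt (-0.38) fell most. Of 21 other histone methylation enzymes 4 were higher and 6 lower. Prdm14, a guardian of naive pluripotency, stood at 8.58 and 8.63, against 9.56 and 9.46 in control RNAi (-0.91, SE 0.06, adjusted p = 0.00205), and the meiotic Prdm9 was also lower (-0.60). Mecom, a PRDM-family oncogene, rose (0.98, SE 0.107, adjusted p = 0.00546), as did Smyd4 (0.41). Prdm9 and Mecom also had low signals, at the 34.3 and 37.3 percentiles of level.

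**Figure D5:**
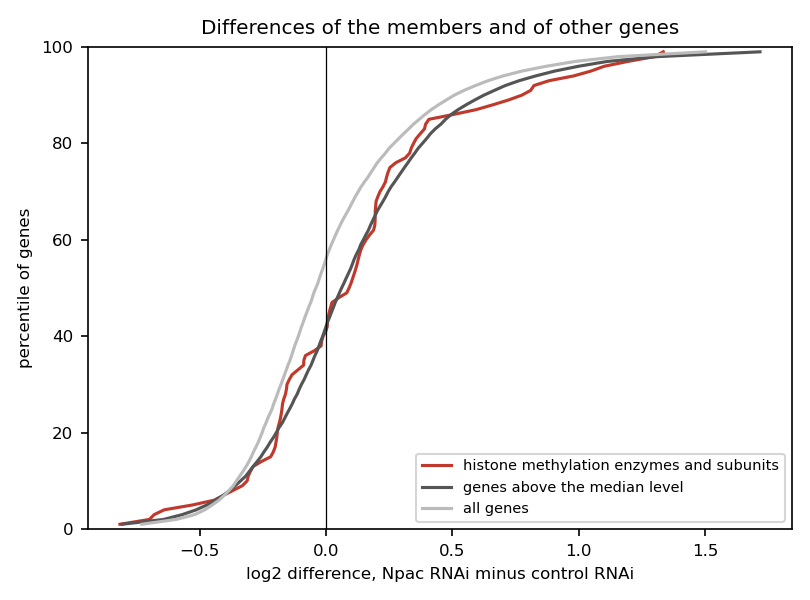
Percentile of genes (y axis) at or below each log2 difference (x axis) for the 54 members, for genes above the median level and for all genes. The curve of the members runs near that of genes above the median level, with medians of 0.09 and 0.06, against -0.04 for all genes. The 51 members above the median level, not drawn apart, had a median of 0.02.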

How the data were processed

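The deposited values are log2 signals, 1 per probe set and array, made by the authors with RMA, per the submitters' processing notes. RMA as a method comprises background correction, quantile normalization and a summary per probe set. The log base is not stated and was inferred from the values. RMA equalises arrays, so a shift shared by most transcripts is lost. The number of arrays limits the precision.

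Of 45101 probe sets, 64 controls, 932 with several symbols and 9160 without a symbol were left out, and 34945 with 1 symbol were used. Entrez identifiers gave each probe set its current RefSeq symbol (GRCm38.p6, names only). Of these, 34741 matched and 204 kept the array annotation's symbol. The brightest probe set over the 4 arrays stood for each gene. The test was limma (version 3.58.1, under R version 4.3.3), by lmFit and eBayes with group as the only term, over 18193 genes with Benjamini-Hochberg adjustment. SE is limma's moderated one, with 2 residual and 2.28 prior degrees of freedom. The procedure was tested on simulated data with independent arrays, which cannot show how far these replicates are independent. The members and lists were chosen with earlier results of these data known. Array values are given for called members without overlap and with a difference of at least 0.4, and every other member is given by its difference. Probe sets are compared above the 25th percentile of level (5.51). From each partner list up to 2 higher and 2 lower genes with the largest difference are named, while Rcor1, Rcor3, Hdac1, Hdac2, Trim28, Aff4 and the array values of members outside the rule above were chosen after their values were seen. Alternatives covered moderation, normalization, dim genes, probe set choice, thresholds, the replicate block and each array left out.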

Additional observations from a re-analysis of the deposited data

Results flagged for a closer look

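The 24 probe sets of the poly-A spike-in transcripts lie outside the gene comparison. All 24 read higher in Npac RNAi than in control RNAi, with a mean log2 difference of 0.54 (range 0.21 to 0.81) and mean levels of 9.20 in Npac RNAi and 8.66 in control RNAi. The spike-ins are added in a fixed amount before labelling, and the amount of sample RNA per array is not given in the sources used here. The cause was not tested.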

How the results depend on the processing

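The counts below are members higher and lower, then partner genes higher and lower, against 17 and 11, and 19 and 22, as reported. They were 10 and 5, then 13 and 11, at an adjusted p under 0.01, 7 and 3, then 3 and 4, at 1.5-fold or more, and 9 and 5, then 6 and 7, without moderation. They were 24 and 14, then 23 and 25, with a trend, 13 and 17, then 17 and 25, with quantile normalization, and 11 and 20, then 16 and 31, with centring. Spike-in scaling gave 6 and 41, then 2 and 52, and the mean of probe sets 12 and 9, then 14 and 21. The probe set with the largest interquartile range gave 18 and 19, then 22 and 30, and genes above the median 22 and 15, then 16 and 21. Robust moderation, cyclic loess, the filter at the 25th percentile and the choice by suffix kept these counts within 1.5 times. The share of all genes called moved with the setting too. It was 22.1% higher and 18.7% lower as reported, 15.6% and 39.4% with centring, and 4.98% and 81.9% with spike-in scaling. At 1.5-fold or more it was 8.09% and 2.04%. Counts over all genes rose in both directions with a trend and fell in both without moderation. With quantile normalization fewer genes were higher and more lower. Whether the members' counts moved more than those of all genes was not tested. Leaving out 1 array gave 10 to 12 members higher and 3 to 6 lower, and 8 to 16 partners higher and 9 to 13 lower. Of the 28 called members 13 kept their call in all 4 omissions, 6 in some and 9 in none (Dot1l, Kdm3b, Kdm4d, Kdm7a, Kmt2b, Men1, Prmt5, Setd3 and Smyd3). The replicate block gave 11 and 7, then 15 and 13. The labels give same-numbered samples only a shared number, and whether they were paired is not known. Same-numbered deviations correlated at -0.145, which cannot decide this. The crossed pairing, added after seeing the data, gave 14 and 8, then 18 and 19.

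The members' median difference, 0.09 as reported, was 0.0163 with quantile normalization, 0.0245 above the median level, -0.0490 with centring, 0.0619 with cyclic loess, -0.45 with spike-in scaling, -0.0336 with the mean of probe sets, -0.0679 with the largest interquartile range and 0.11 with the probe set chosen by suffix. It was 0.0507 to 0.100 with 1 array left out.

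Signs turned under spike-in scaling, which lowers every value alike, for Carm1 (-0.54), Dot1l (-0.34), Ehmt2 (-0.42), Jmjd6 (-0.14), Kdm1a (-0.43), Kdm2a (-0.18), Kdm3a (-0.52), Kdm4b (-0.35), Kdm4d (-0.35), Kdm5a (-0.53), Kdm6b (-0.15), Kdm7a (-0.30), Kmt2b (-0.33), Kmt2c (-0.46), Kmt2d (-0.31), Kmt5a (-0.44), Men1 (-0.28), Prdm4 (-0.53), Prmt6 (-0.40), Prmt7 (-0.38), Setd1a (-0.34), Setd5 (-0.41) and Setdb2 (-0.20). They turned with the mean of probe sets for Kdm2a (-0.0371), Kmt2c (-0.27) and Setd3 (0.11), and with the largest interquartile range for Kmt2c (-1.03), Kmt5a (-0.39), Kmt5b (0.64), Men1 (-0.26), Phf8 (-0.42), Prmt7 (-0.45), Setd1a (-0.33), Setd3 (0.42) and Setd5 (-0.37). Setd3 (0.42) also turned with the probe set chosen by suffix. Other causes were not tested. Dim genes such as Kdm4d lie near background, where differences are compressed.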
